A study of Drosophila melanogaster with 12 samples.

Results

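Kc167 cells that had received Mock conditioned medium were compared late and early, with 2 arrays at 10 h set against 2 arrays at 2 h. These 4 of the 12 arrays in the series were chosen by their labels, from the medium and the time, and no measured value was used to pick arrays. The comparison itself was set with earlier results of these data known. Kc167 cells are a fruit fly line (Drosophila melanogaster) that was derived from embryos and behaves much like blood cells. In both groups equal numbers of cells in a multi-well plate were exposed to Mock conditioned medium for 30 min, the medium was then exchanged for Schneider's medium, and total RNA was taken at 10 h or at 2 h from the start of the exposure. Each time has 2 biological replicates, and the labels do not say what conditioned the Mock medium. The other 8 arrays are Mock at 4 h and cells given medium with Unpaired (UPD), the secreted JAK/STAT ligand, at 2, 4 and 10 h. The cells are 1 line, and the comparison asks which transcripts differ between late and early cells that received no UPD.

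As background, Kc167 cells resemble plasmatocytes, the phagocytes of fly blood, which take up debris, secrete the collagen IV and laminin of basement membranes and respond to microbes through the Toll and Imd pathways. An exchange of medium changes nutrients, secreted factors and mechanical conditions together, and fly cells are known to answer nutrients through insulin and TOR signalling, which set the output of ribosomes and mitochondria. Cytochrome P450 enzymes and glutathione transferases handle foreign and internal small molecules. Chaperones of the cytosol and of the endoplasmic reticulum respond to unfolded protein.

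Levels are log2 values of probe sets, each array shifted so that its median difference from the Mock 2 h mean was 0 over the 6834 probe sets with a mean above 5 in the 4 Mock arrays. The level 5 separates brighter probe sets from dim ones whose values scatter widely. On the values as deposited the median difference between 10 h and 2 h was −0.40. The shift removed differed between arrays, at −0.12 and −0.63 for Mock 10 h replicates 1 and 2 and 0.04 and −0.04 for Mock 2 h. Every difference below, and every contrast between the 2 late arrays, is relative to these shifts. Of 21 measured genes in the blood cell list 13 had a mean above 5, among them Trf, a general transcription factor gene and no blood marker. The summed level of all 21 was 13.63 and 13.86 in Mock 10 h cells and 13.67 and 13.66 in Mock 2 h cells. By mean level the brightest members were Fer1HCH (11.74) and Nplp2 (11.24), with differences of 0.05 and 0.77, so the sum follows dimmer members little. Pxn, encoding the matrix enzyme peroxidasin, stood at 8.36 and 8.43 in Mock 10 h cells and 7.70 and 7.61 in Mock 2 h cells. Hml, encoding the clotting protein hemolectin, stood at 7.83 and 10.78 at 10 h and 10.54 and 10.59 at 2 h, so that 1 array was far below the other 3. The GATA factor gene srp stood at 8.54 and 9.52 at 10 h and 9.55 and 9.59 at 2 h. The receptor genes NimC1, eater and Sr-CI, also used as plasmatocyte markers, had means below 5. In these bulk samples, fewer cells of a type and less RNA per cell cannot be told apart.

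Markers of other cell types were mostly dim. None of 6 crystal cell, 6 fat body and 5 muscle markers had a mean above 5, and their summed levels lay between 2.93 and 5.03 in Mock 10 h arrays and between 3.56 and 5.11 in Mock 2 h arrays. Among 6 lamellocyte markers 4 had a mean above 5, with a summed level of 9.55 and 9.90 at 10 h and 10.11 and 10.17 at 2 h. Of 6 neuron markers 2 had a mean above 5, and the sum was 6.78 and 7.13 at 10 h and 8.02 and 8.20 at 2 h. The first was elav, encoding an RNA-binding protein, at 6.31 and 6.16 at 10 h and 7.58 and 7.86 at 2 h. The other was brp, at 3.96 and 5.68 at 10 h and 5.78 and 5.69 at 2 h, while the neuron markers nSyb, para, futsch and ChAT had means below 5. The part of such markers in the results was not tested.

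The Mock 10 h arrays differed strongly from each other, and Mock 10 h replicate 1 stood apart. Over the 6834 probe sets, 961 were at least 2-fold below the Mock 2 h mean on Mock 10 h replicate 1 and 68 on Mock 10 h replicate 2, with 42 on both. At least 2-fold higher were 9 on replicate 1, 4 on replicate 2 and 2 on both. The standard deviation of these differences was 0.775 for replicate 1 and 0.304 for replicate 2, and 0.281 and 0.216 for the Mock 4 h arrays. The median replicate SD was 0.265 in Mock 10 h and 0.053 in Mock 2 h cells. The replicates correlated across probe sets with r = 0.926 at 10 h and 0.997 at 2 h, where probe sets are not independent replicates. Most large differences therefore come from a single array, and the values of both arrays are given throughout.

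**Figure D1:**
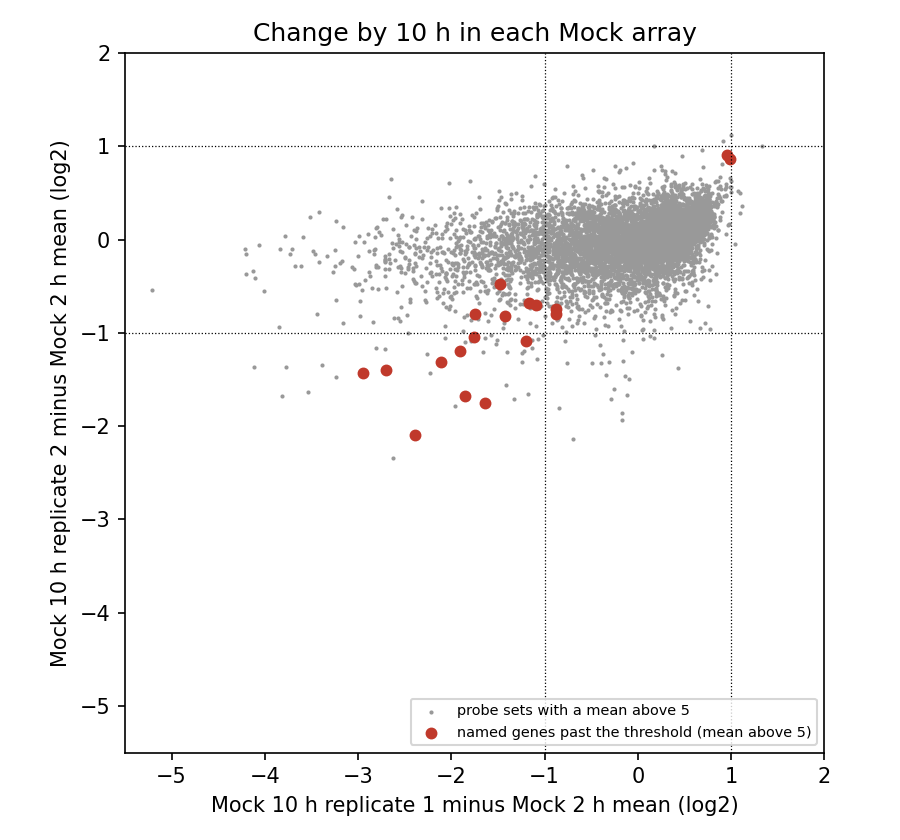
Difference of each probe set from the Mock 2 h mean (log2, centred) on Mock 10 h replicate 1 (horizontal axis) and Mock 10 h replicate 2 (vertical axis), for the 6834 probe sets with a mean above 5. The cloud is stretched along replicate 1, where 961 probe sets are at least 2-fold lower, against 68 on replicate 2 and 42 on both.

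In limma, with all 12 arrays in the fit and the 10 h arrays given less weight, 0 of 18769 probe sets passed an adjusted p of 0.05 between Mock 10 h and Mock 2 h (0.0%), while 1561 had an unadjusted p under 0.05 (8.32%). Without weights, variance trend and robust moderation limma also called 0, with 2071 at an unadjusted p under 0.05. Without Mock 10 h replicate 2, limma called 1943 probe sets, 466 higher and 1477 lower. With Mock 10 h replicate 1 left out it called 9, all lower, and 1, also lower, when Mock 2 h replicate 1 was left out. Where 1 array of a group is left, it is assumed to vary like the other groups. Over all probe sets with a mean above 5, the quartiles of the difference were −0.35 and 0.20, with both Mock 10 h arrays above both Mock 2 h arrays in 1847 (27.0%) and below them in 1836 (26.9%).

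When limma was fitted to the 6834 brighter probe sets alone, 23 passed (0.337%), 3 higher (0.0439%) and 20 lower (0.293%). These differences ran from −0.81 to −2.48 among the lower ones, in which both Mock 10 h arrays lay below both Mock 2 h arrays in 20 of 20 and were at least 2-fold lower on both arrays in 13. The count was 0 with the 4 Mock arrays alone and 0 without either UPD 10 h array. It was 58 when Mock 10 h replicate 1 was left out, 2780 when Mock 10 h replicate 2 was and 7 when Mock 2 h replicate 2 was. Leaving out any other array gave 18 to 24. The genes described next come from this fit, in which 18 of the 23 probe sets name a single gene.

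Cyp6a20, encoding a cytochrome P450, had the largest difference of these genes, with 4.69 and 4.99 in Mock 10 h cells and 7.00 and 7.17 in Mock 2 h cells. Both late arrays lay more than 4-fold below the early ones. It fell by 2.24 ± 0.31 (SE) on the log2 scale in the limma fit on brighter probe sets (adjusted p = 0.0101), and its adjusted p was 0.0802 in the fit on all probe sets. The Mock 4 h values were 6.51 and 7.00, closer to 2 h. A second P450 gene, Cyp6d5, stood at 6.27 and 7.07 at 10 h and 8.28 and 8.48 at 2 h. It fell by 1.71 ± 0.24 (limma adjusted p = 0.0101 in the fit on brighter probe sets, 0.0802 in that on all).

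pirk, encoding a negative regulator of the Imd pathway, stood at 6.62 and 6.51 in Mock 10 h cells and 8.18 and 8.34 in Mock 2 h cells. The late arrays nearly coincided, which sets this gene apart from most large differences. pirk fell by 1.69 ± 0.23 (limma adjusted p = 0.0101 on brighter probe sets, 0.0802 on all). At 4 h it stood at 8.19 and 8.43, so that it was within the range of the 2 h arrays on 1 array and above it on the other. vir-1, a gene first described as virus-induced and dependent on JAK/STAT signalling, stood at 5.80 and 6.51 at 10 h and 7.51 and 7.61 at 2 h, and it fell by 1.40 ± 0.25 (limma adjusted p = 0.0257 on brighter probe sets, 0.150 on all).

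Several genes without a described role here showed differences of the same size. CG12535 stood at 4.37 and 5.89 in Mock 10 h cells and 7.24 and 7.40 in Mock 2 h cells, and CG11893 at 4.74 and 6.04 and at 7.36 and 7.51. CG4793 stood at 4.57 and 4.75 at 10 h and 6.26 and 6.58 at 2 h. All 3 passed limma on brighter probe sets, with differences of −2.19 ± 0.36, −2.05 ± 0.34 and −1.76 ± 0.27 and adjusted p of 0.0226, 0.0226 and 0.0150. CG32264 fell by 1.27 ± 0.24 (limma adjusted p = 0.0314 on brighter probe sets).

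Other genes that fell in the limma fit on brighter probe sets act in RNA, protein and metabolite handling. egh, encoding a glycosphingolipid mannosyltransferase, stood at 6.94 and 7.65 in Mock 10 h cells and 8.81 and 8.88 in Mock 2 h cells (−1.55 ± 0.25, adjusted p = 0.0226). Another probe set for egh differed by −0.30, with overlapping arrays. Dbp73D, encoding a DEAD-box RNA helicase, stood at 6.62 and 6.74 at 10 h and 7.78 and 7.87 at 2 h, and Naam, encoding a nicotinamidase, at 7.34 and 7.43 and at 8.21 and 8.24. In both genes the replicates of each time lay close together. Imp, encoding an mRNA-binding protein, stood at 9.03 and 9.64 at 10 h and 10.39 and 10.52 at 2 h, and its other probe sets differed by −1.46, −1.73 and, for 1 with a mean below 5, −0.83. Dbp73D fell by 1.14 ± 0.19 (limma adjusted p = 0.0226), Naam by 0.84 ± 0.15 and Imp by 1.12 ± 0.20 (both 0.0257).

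Smaller falls in that fit were those of Grp170, encoding a chaperone of the endoplasmic reticulum (−0.97 ± 0.19), Cul2, encoding a cullin of ubiquitin ligases (−0.93 ± 0.16), Ugt37D1, encoding a UDP-glycosyltransferase (−0.90 ± 0.17), and l(1)G0289 (−0.81 ± 0.15). Their limma adjusted p ran from 0.0241 to 0.0414.

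The genes that rose were Prx6c and CG33307. Prx6c, encoding a peroxiredoxin that removes peroxides, stood at 10.87 and 10.75 in Mock 10 h cells and 9.92 and 9.84 in Mock 2 h cells, and it rose by 0.93 ± 0.16 (limma adjusted p = 0.0250 on brighter probe sets, 0.0895 on all). CG33307 stood at 9.40 and 9.35 at 10 h and 8.49 and 8.40 at 2 h, and it rose by 0.93 ± 0.17 (adjusted p = 0.0269 and 0.170). Sirup, encoding an assembly factor of respiratory complex II, stood at 11.14 and 10.81 at 10 h and 10.21 and 10.09 at 2 h, a difference of 0.82 that missed the threshold (limma adjusted p = 0.075 on brighter probe sets). CG5254 and CG34330 differed by 0.76 and 1.06 and also missed it.

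**Figure D2:**
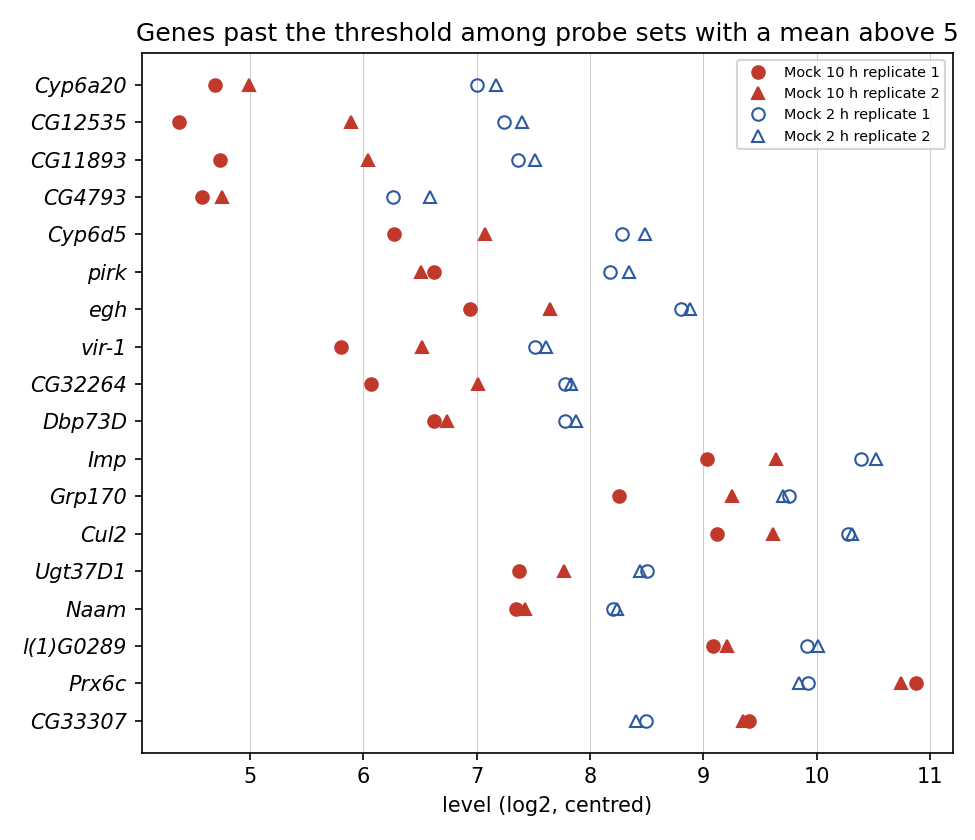
Centred log2 level (horizontal axis) on each Mock array for the genes past an adjusted p of 0.05 in the limma fit on probe sets with a mean above 5. Mock 10 h arrays lie left of Mock 2 h arrays for the genes that fell, such as Cyp6a20 (4.69 and 4.99 against 7.00 and 7.17), and right of them for Prx6c and CG33307.

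The largest mean differences rested mostly on Mock 10 h replicate 1, the array with the wider spread of differences (SD 0.775 against 0.304). Of 358 probe sets with a mean difference of at least 2-fold lower, 310 reached 2-fold on replicate 1 alone, 6 on replicate 2 alone and 42 on both, and 344 were lower on replicate 1 than on replicate 2. Their median difference was −2.20 on replicate 1 and −0.36 on replicate 2. With both Mock 10 h arrays below both Mock 2 h arrays, 306 probe sets were at least 2-fold lower (4.48%) and 2 at least 2-fold higher (0.0293%).

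The genes below are the largest of these differences, chosen after their values were seen, and none passed limma. chico, encoding the insulin receptor substrate, stood at 2.90 and 7.57 in Mock 10 h cells and 8.02 and 8.20 in Mock 2 h cells. eIF4EHP, encoding a cap-binding repressor of translation, stood at 3.52 and 5.67 at 10 h and 6.99 and 7.69 at 2 h. This was a difference of −2.74, while another eIF4EHP probe set, with a mean of 4.70, differed by −1.02. Dscam1, encoding an immunoglobulin-type receptor of neurons and blood cells, stood at 2.79 and 6.84 at 10 h and 6.90 and 7.10 at 2 h. For chico and Dscam1, replicate 2 lay far nearer to the early arrays than replicate 1, which was more than 16-fold below it.

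The same split appeared in Claspin, a gene of the replication checkpoint, at 3.60 and 7.16 in Mock 10 h cells and 7.27 and 7.37 in Mock 2 h cells. ftz-f1, encoding a nuclear receptor, differed on both arrays, at 4.71 and 6.47 at 10 h and 7.84 and 8.04 at 2 h. This was a difference of −2.35, while another ftz-f1 probe set of similar mean level differed by only −0.66, also lower on both arrays. Dad, encoding an inhibitory Smad of BMP signalling, stood at 3.18 and 5.45 at 10 h and 6.33 and 6.36 at 2 h. ftz-f1 and Dad were thus lower on both late arrays, by amounts that differed between them.

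The difference ran with gene length. Across the 5995 probe sets with a known genomic length, Spearman's rho between difference and length was −0.45, −0.489 on Mock 10 h replicate 1 and −0.153 on Mock 10 h replicate 2. These are correlations across genes that share arrays. The median difference was 0.16 in the shortest of 3 equal classes of genes, up to 1886 bp, −0.03 in the middle class and −0.25 in the longest, from 4329 bp. Over 10 equal classes, the shortest had a median of 0.40 and the longest of −0.64 on replicate 1, and 0.12 and −0.07 on replicate 2. The 358 lower probe sets had a median gene length of 6650.5 bp, against 2735 bp among all with a mean above 5, and 220 of 5995 were at least 2-fold lower after the length trend was removed. The 3′ minus 5′ signal of the array's control probe sets, a reading of RNA or cDNA completeness, was 0.66 and 0.46 for Act5C at 10 h and 0.65 and 0.56 at 2 h. For eIF4a it was 0.73 and 1.21 at 10 h and 0.74 and 0.68 at 2 h, so that it was highest on replicate 2, and its part in the results was not tested.

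**Figure D3:**
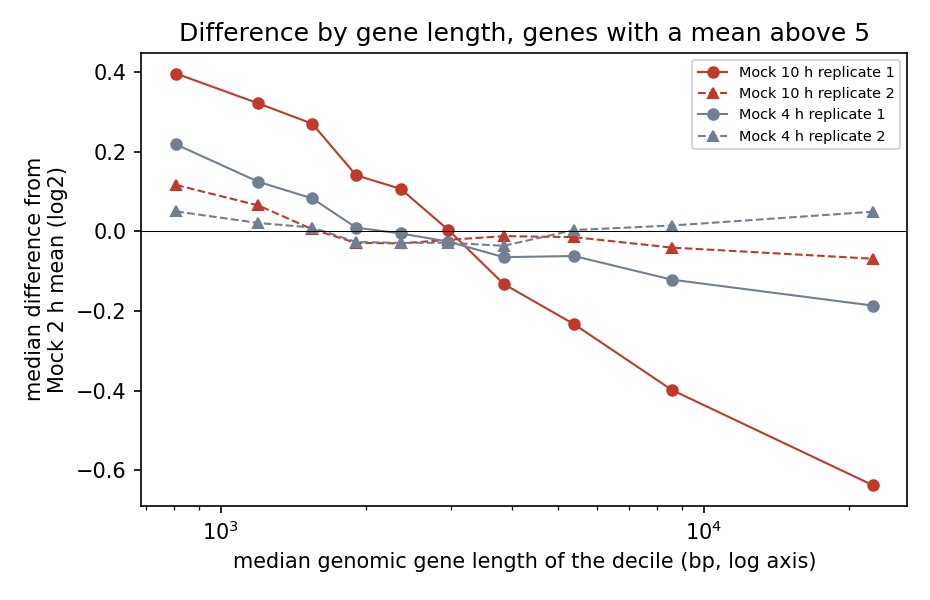
Median difference from the Mock 2 h mean (log2, vertical axis) for 10 equal classes of genes ordered by genomic length (horizontal log axis, median bp), on each Mock 10 h and Mock 4 h array. Mock 10 h replicate 1 has 0.40 in the shortest class and −0.64 in the longest, while replicate 2 has 0.12 and −0.07.

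Gene groups are described by the brightest probe set of each gene, for members with a mean above 5. Over all 5712 such genes, both Mock 10 h arrays lay above both Mock 2 h arrays in 1568 (27.5%) and below them in 1487 (26.0%), with a median difference of −0.01 and a median gene length of 2636 bp. Without the length trend, 1608 of 5698 genes were higher (28.2%) and 1415 lower (24.8%), the shares to set beside the length-corrected counts below. In the limma fit on all probe sets 0 members of any list passed. In the fit on brighter probe sets 3 list members passed, all lower: Cyp6a20, Cyp6d5 and pirk.

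Genes of the respiratory chain and ATP synthase, which carry out oxidative phosphorylation, were on the high side. Of 56 members, 45 had both late arrays above both early ones and 1 had them below, and the median difference was 0.40, with 0.60 on replicate 1 and 0.28 on replicate 2. ND-B14.5A, a subunit of complex I, stood at 10.85 and 10.45 in Mock 10 h cells and 10.05 and 9.90 in Mock 2 h cells, a difference of 0.67. COX4, of cytochrome c oxidase, stood at 12.68 and 12.62 at 10 h and 12.43 and 12.26 at 2 h. UQCR-11, of complex III, was the exception, at 7.01 and 7.14 at 10 h and 7.59 and 7.57 at 2 h. Their median length was 1148 bp, and the median difference was 0.26 after the length trend was removed, 0.34 after quantile normalization and 0.02 on the values as deposited, where that of all brighter probe sets was −0.40.

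Mitochondrial ribosomal proteins, which translate the mitochondrial genome, had a median difference of 0.33 over 69 members, with both late arrays higher in 49 and lower in 2. The medians were 0.51 on replicate 1 and 0.14 on replicate 2. mRpL2 stood at 10.48 and 10.01 in Mock 10 h cells and 9.67 and 9.58 in Mock 2 h cells, and mRpS16 at 11.04 and 10.55 and at 10.46 and 10.23. Their median length was 909 bp, and without the length trend the list's median was 0.13, with 39 higher and 11 lower.

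Cytosolic ribosomal proteins had a median difference of 0.32 over 37 members, with both late arrays higher in 33 and lower in 0, and nearly the same median on replicate 1 (0.31) and replicate 2 (0.30). RpS18 stood at 13.94 and 13.93 in Mock 10 h cells and 13.52 and 13.43 in Mock 2 h cells. RpLP1 stood at 13.87 and 13.87 at 10 h and 13.56 and 13.46 at 2 h. The largest difference was that of RpS19b, a second copy of the gene for small subunit protein S19, at 8.91 and 8.55 at 10 h and 8.16 and 7.94 at 2 h. This group depends on the scaling: its median was 0.03 after quantile normalization, where that of all brighter probe sets was 0.06, and −0.05 on the values as deposited. Its members are among the brightest on the array, their median length was 1099 bp, and without the length trend the median was 0.15, with 20 higher and 0 lower.

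Proteasome subunits, which degrade tagged proteins, had a median difference of 0.22 over 26 members, 14 with both late arrays higher and 1 lower, and of 0.12 without the length trend, with 12 higher and 1 lower. Prosbeta5, a catalytic subunit, stood at 12.23 and 11.89 in Mock 10 h cells and 11.66 and 11.50 in Mock 2 h cells. DNA replication genes had a median of 0.20 over 22 members, 11 higher and 0 lower, and of 0.15 without the length trend, with 12 higher and 2 lower. Lysosomal hydrolases had a median of 0.24 over 11 members, 5 higher and 3 lower. CtsL1, encoding a cathepsin L, stood at 12.87 and 12.74 at 10 h and 12.26 and 12.23 at 2 h, while LManII, encoding a mannosidase, stood at 7.24 and 8.99 and at 8.86 and 8.88. Members of the lysosomal list thus lay on both sides, though without the length trend its median was 0.27, with 6 higher and 1 lower.

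Basement membrane genes were the longest among these higher lists, with a median of 14192 bp. Of 11 members, 6 had both late arrays higher and 0 lower, the median difference was 0.23, and without the length trend it was 0.45, with 8 higher. Col4a1 and vkg encode the collagen IV chains. Col4a1 stood at 10.65 and 10.50 in Mock 10 h cells and 10.09 and 10.16 in Mock 2 h cells, and vkg at 10.13 and 10.30 and at 9.76 and 9.79. SPARC, encoding a collagen-binding protein, stood at 12.27 and 12.01 at 10 h and 11.77 and 11.65 at 2 h. The laminin genes LanA, LanB1 and LanB2 had overlapping arrays, with replicate 1 below and replicate 2 at or above the early values, such as 10.04 and 11.15 for LanB1 at 10 h and 10.71 and 10.74 at 2 h.

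**Figure D4:**
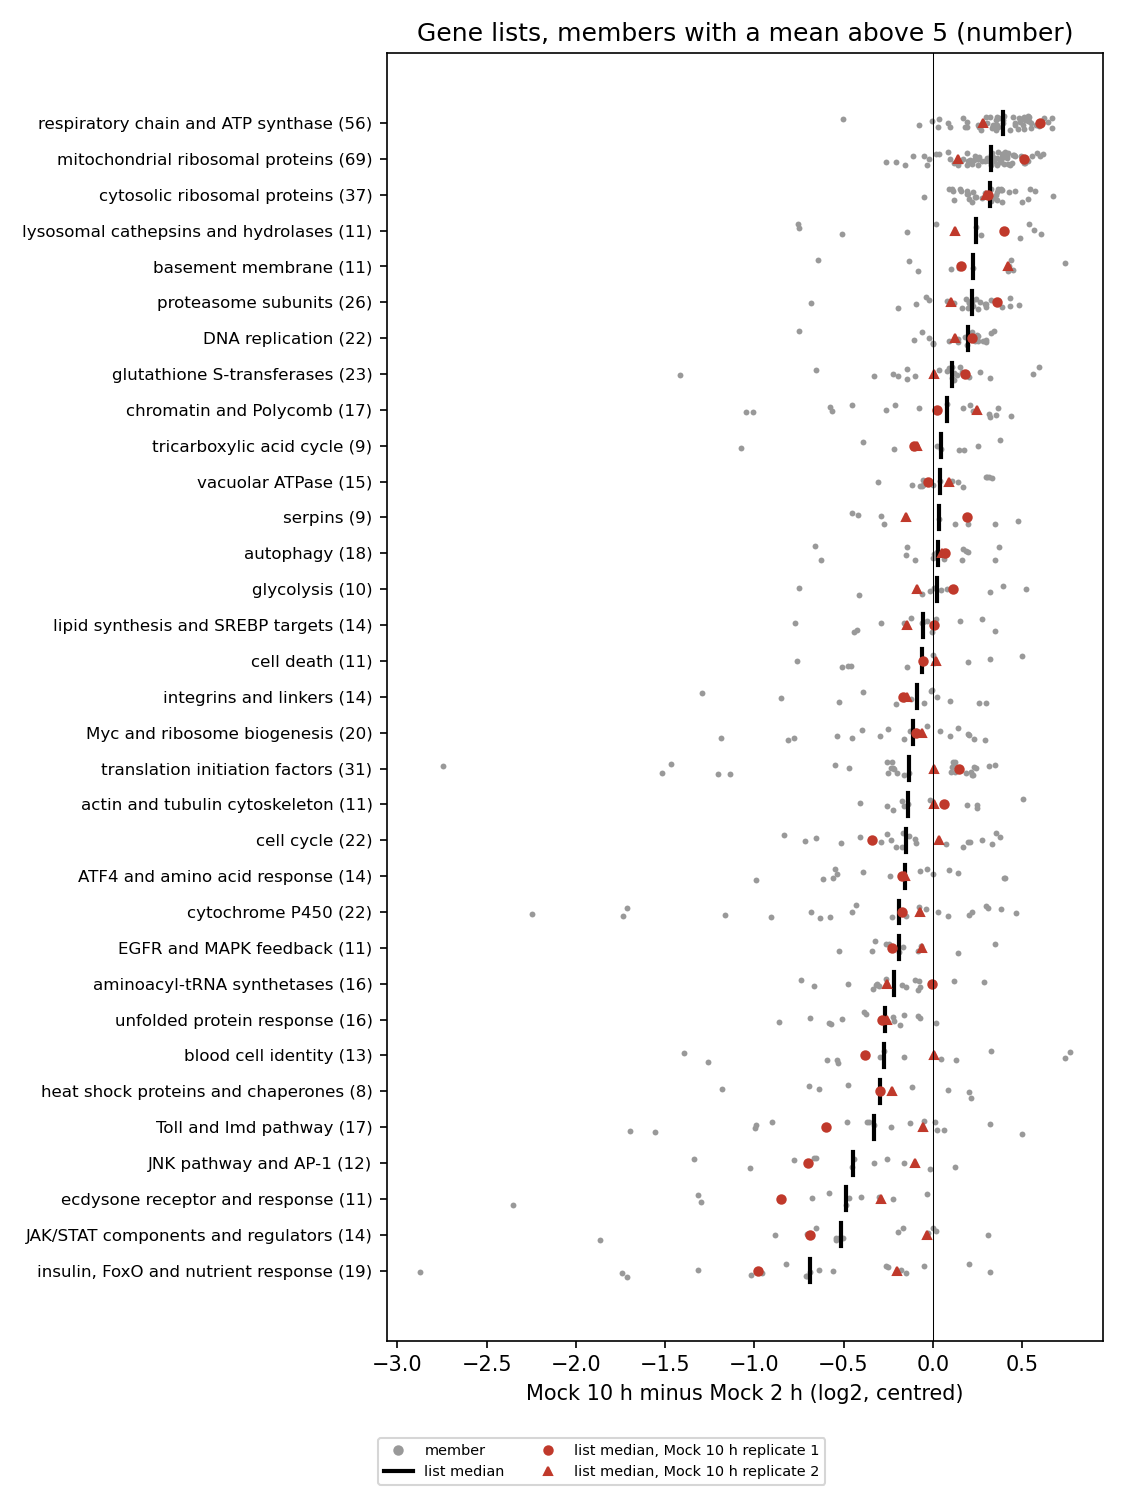
Difference between Mock 10 h and Mock 2 h (log2, centred, horizontal axis) for the members of each gene list with a mean above 5, with the list median (black bar) and the median on each Mock 10 h array (red). Respiratory chain, mitochondrial ribosomal and cytosolic ribosomal lists lie at 0.40, 0.33 and 0.32, and the insulin and nutrient list at −0.69, where replicate 1 is at −0.98 and replicate 2 at −0.20.

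Genes of insulin signalling, FoxO and the nutrient response were on the low side. Of 19 members, 15 had both late arrays lower and 0 higher, and the median difference was −0.69, with −0.98 on replicate 1 and −0.20 on replicate 2. InR, encoding the insulin receptor and a known FoxO target, stood at 5.73 and 6.76 in Mock 10 h cells and 7.96 and 8.02 in Mock 2 h cells. This difference of −1.74 missed the threshold (limma adjusted p = 0.0518 on brighter probe sets, 0.16 on all). scyl, encoding a growth inhibitor that acts on TOR, stood at 6.06 and 7.74 at 10 h and 8.46 and 8.76 at 2 h. ImpL2, encoding a secreted antagonist of insulin-like peptides, stood at 8.73 and 10.09 at 10 h and 10.73 and 10.72 at 2 h. Akt, encoding a kinase of the pathway, stood at 7.64 and 7.53 at 10 h and 8.20 and 8.34 at 2 h, so that its late arrays lay close together. The list's median gene length was 9830 bp, and its median without the length trend was −0.45, with 10 lower and 0 higher.

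Genes of the unfolded protein response of the endoplasmic reticulum had a median difference of −0.27 over 16 members, 11 with both late arrays lower and 0 higher, and the median was −0.29 on replicate 1 and −0.25 on replicate 2. Sil1, encoding a nucleotide exchange factor of the chaperone BiP, stood at 7.99 and 7.99 in Mock 10 h cells and 8.80 and 8.90 in Mock 2 h cells. Ero1L, encoding an oxidase of protein thiols, stood at 8.50 and 9.01 at 10 h and 9.49 and 9.40 at 2 h. Hsc70-3, encoding BiP itself, stood at 12.04 and 12.16 at 10 h and 12.35 and 12.29 at 2 h. Without the length trend the list's median was −0.22, and after quantile normalization it was −0.31.

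Among heat shock proteins and chaperones, 4 of 8 had both late arrays lower and 2 higher, with a median of −0.30. Hsp68, an inducible Hsp70 gene, stood at 5.89 and 5.68 in Mock 10 h cells and 7.15 and 6.78 in Mock 2 h cells. Hsp27, a small heat shock gene, stood at 7.31 and 7.65 at 10 h and 8.23 and 8.12 at 2 h, and DnaJ-1 at 9.78 and 10.15 and at 10.67 and 10.53. The constitutive Hsc70-4 stood at 13.63 and 13.46 at 10 h and 13.39 and 13.30 at 2 h. At 4 h the differences from 2 h were −0.63 for Hsp68, −0.39 for Hsp27 and −0.47 for DnaJ-1, which share the 2 h arrays.

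Cytochrome P450 genes lay on both sides, as did genes as a whole, where 26.0% had both late arrays lower and 27.5% higher. Of 22 in the list, 8 had both late arrays lower and 5 higher, and the median was −0.19. These figures include Cyp1, a cyclophilin gene and no P450, which was among the 5 higher with a difference of 0.30. Besides Cyp6a20 and Cyp6d5, Cyp4p1 stood at 6.46 and 7.92 in Mock 10 h cells and 8.87 and 8.98 in Mock 2 h cells (−1.74, limma adjusted p = 0.10 on all probe sets), and Cyp6a23 at 7.59 and 7.61 and at 8.53 and 8.48. Cyp6a2 lay on the other side, at 7.40 and 7.40 at 10 h and 6.91 and 6.96 at 2 h. Of 23 glutathione transferases, 8 were higher and 7 lower, near the shares over all genes, with a median of 0.11. Without the length trend 4 were higher and 8 lower, with a median of −0.10. GstD2 stood at 6.99 and 5.54 at 10 h and 7.69 and 7.67 at 2 h, and GstE12 at 10.97 and 10.71 and at 10.29 and 10.19.

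Toll and Imd genes had a median of −0.33 over 17 members, 8 lower and 2 higher, with −0.60 on replicate 1, −0.06 on replicate 2, 0.03 after quantile normalization and −0.19 without the length trend, with 7 lower and 4 higher. Besides pirk, PGRP-LF, encoding another inhibitor of Imd signalling, stood at 4.60 and 5.61 in Mock 10 h cells and 6.59 and 6.74 in Mock 2 h cells. Rel, encoding the NF-κB factor of the Imd pathway, stood at 8.26 and 9.41 at 10 h and 9.74 and 9.92 at 2 h. Diap2, encoding a ubiquitin ligase of the pathway, was higher, at 9.24 and 8.97 at 10 h and 8.61 and 8.61 at 2 h.

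JAK/STAT components and regulators had a median of −0.52 over 14 members, 5 lower and 1 higher, with −0.69 on replicate 1 and −0.03 on replicate 2. Their median length was 7314 bp, and without the length trend the list's median was −0.12, with 3 lower and 2 higher. The receptor gene dome stood at 8.08 and 8.06 in Mock 10 h cells and 8.03 and 8.11 in Mock 2 h cells, a difference of 0.00. The transcription factor gene Stat92E stood at 9.28 and 10.44 at 10 h and 10.34 and 10.43 at 2 h, and replicate 2 alone lay on the early values. Socs44A, encoding a suppressor of cytokine signalling, stood at 9.21 and 8.72 at 10 h and 8.92 and 8.98 at 2 h. JNK pathway genes had a median of −0.45 over 12 members, 7 lower and 1 higher, with −0.70 on replicate 1, −0.10 on replicate 2 and −0.32 without the length trend, with 4 lower and 2 higher. kay, encoding the Fos subunit of AP-1, stood at 8.74 and 8.64 at 10 h and 9.16 and 9.10 at 2 h.

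Ecdysone receptor and response genes had a median of −0.49 over 11 members, 6 lower and 0 higher, with −0.85 on replicate 1 and −0.29 on replicate 2, and a median length of 22426 bp. Without the length trend the median was −0.27, with 4 lower and 0 higher. br, encoding zinc finger factors of metamorphosis, stood at 4.70 and 5.25 in Mock 10 h cells and 6.26 and 6.28 in Mock 2 h cells. Lists with medians near that of all genes were glycolysis (0.02 over 10 members), autophagy (0.03 over 18), vacuolar ATPase (0.04 over 15) and cell death (−0.06 over 11), of which glycolysis and autophagy had 0.17 and 0.12 without the length trend. Cell cycle genes had 4 of 22 higher and 6 lower, and translation initiation factors 10 of 31 higher and 10 lower.

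The late change was set beside that after UPD medium, measured on 4 arrays that share none with the Mock comparison. Over the 6834 brighter probe sets the Mock change and the UPD change correlated with r = 0.393 (Spearman's rho 0.434), and 65.5% had the same sign, where probe sets are not independent. Both changes ran with gene length, with a rho of −0.45 for Mock and −0.684 for UPD. The standard deviation of the change was 0.464 after Mock and 0.725 after UPD. limma called 1648 probe sets between 10 h and 2 h after UPD (8.78%), 912 higher (4.86%) and 736 lower (3.92%), against 1 higher and 1758 lower on the values as deposited. With UPD 10 h replicate 1 left out it called 7, with UPD 10 h replicate 2 left out 0 (1140 at an unadjusted p under 0.05), and with Mock 10 h replicate 1 or 2 left out 3547 or 3535. Of the 20 probe sets that fell after Mock in the fit on brighter probe sets, 16 had a UPD change below 0, against 49.5% of all brighter ones. Of the same 20, 7 passed for UPD in either direction in the fit on all probe sets, among them CG4793, whose UPD change was 1.87. Brighter probe sets pass for UPD often, 2424 of 6834 in the limma fit on these alone, so 7 of 20 does not mark the 20 as special. Cyp6d5 had a UPD change of −1.79 and egh of −2.13, and all 3 probe sets that rose after Mock had a UPD change above 0, with 1.53 for Prx6c.

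The difference between the changes was tested in the same limma fit, and 68 of 18769 probe sets passed (0.362%). The Mock change was above the UPD change in 39 (0.208%) and below it in 29 (0.155%). This split depended on the processing, with 116 above and 25 below after quantile normalization, 41 and 58 without the length trend and 242 and 305 without weights. In the 39, the median change was 0.11 after Mock and −1.61 after UPD, at a median gene length of 8638 bp. In the 29, it was −0.33 after Mock and 0.98 after UPD, at 1506 bp. These calls rest on the set of arrays: limma called 955 when Mock 10 h replicate 1 was left out, 409 above and 546 below, and 1483 when Mock 10 h replicate 2 was, 407 above and 1076 below. With UPD 10 h replicate 1 left out it called 1, and with UPD 10 h replicate 2 left out 0 (525 at an unadjusted p under 0.05). Without the arrays of UPD 2 h the counts were 17 and 31, of Mock 2 h 7 and 20, of UPD 4 h 14 and 14, and of Mock 4 h 26 and 26, in the order of replicates 1 and 2. With the replicate number as a block the count was 33.

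Col4a1, vkg and Hsp27 were picked from their lists after their values were seen. Other basement membrane genes did not share the difference of the collagen IV genes. SPARC changed by 0.43 after Mock and 0.94 after UPD, a difference of −0.52, and LanA and LanB1 differed by 0.15 and 0.61, none passing limma. Col4a1 changed by 0.45 after Mock and −1.27 after UPD, where it stood at 8.79 and 8.88 at 10 h and 10.10 and 10.11 at 2 h, and vkg by 0.44 and −1.26 (limma adjusted p of the difference 0.0186 for both). Hsp27 changed by −0.70 after Mock and 0.77 after UPD (adjusted p of the difference 0.0300). CG4793, which fell after Mock, rose after UPD by 1.87, to 9.15 and 9.07 at 10 h, against 7.22 and 7.26 at 2 h (difference −3.63, adjusted p = 0.008 in limma).

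**Figure D5:**
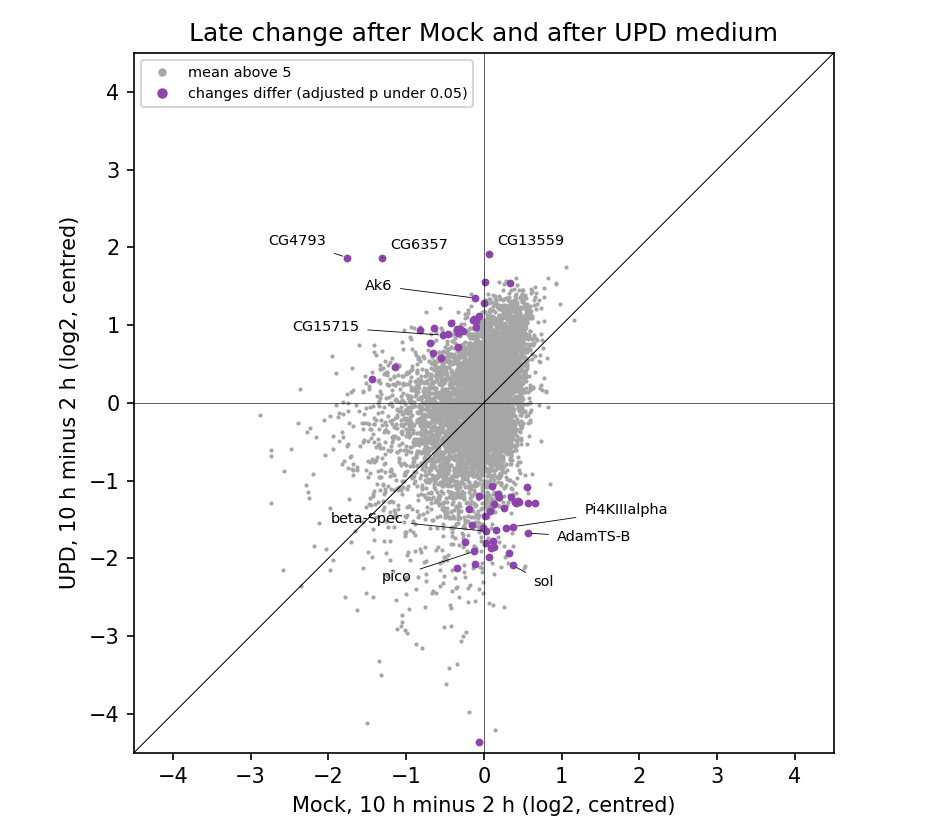
Change between 10 h and 2 h after Mock medium (horizontal axis) and after UPD medium (vertical axis), log2 and centred, for probe sets with a mean above 5, with probe sets whose changes differ in limma in purple. CG4793 lies at −1.76 after Mock and 1.87 after UPD, and most purple points lie near 0 on the Mock axis, with a median of 0.11 in those below the diagonal.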

How the data were processed

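Kc167 RNA was hybridised to 12 Affymetrix arrays, and each array's group and replicate number came from its title. Per the labels' protocols, Trizol and column purification of the RNA preceded labelling of 1 µg as biotin cRNA. The deposited values, 1 per probe set and array, were used as log2, a base inferred from their range because no label states it. How probes were summarised and normalized is not stated in the labels or headers. As deposited, the Mock arrays' medians over the tested probe sets lay between 2.38 and 2.39. The number of arrays limits the precision, and no detection calls were used.

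The table holds 18952 probe sets, of which 183 controls were left out. With GEO's platform annotation, and symbols brought up to date by ID from RefSeq (assembly Release 6, used for names and gene length only), the table gave 13647 probe sets 1 gene, 402 several and 4720 none, and 13544 were matched by ID, representing 11982 genes.

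Each array was centred as described, and limma 3.58.1 in R 4.3.3 fitted 6 group means to 12 arrays, with precision weights by time (3.57 at 2 h, 1.09 at 4 h, 0.257 at 10 h), a variance trend and robust moderation. P-values are two-sided and Benjamini-Hochberg adjusted over all probe sets tested, with a threshold of 0.05. In the fit on 12 arrays they measure the spread between biological replicates as labelled, pooled over the 6 groups, UPD arrays included. The spread of the Mock replicates alone is not what they measure. The code was tested on simulated data. Replicate numbers are shared between groups. The difference between Mock replicates 1 and 2 at 2 h correlated with that at 10 h at r = 0.247 across the brighter probe sets. As probe sets are not independent, this cannot settle whether the numbers mark pairs. The main fit did not take them as pairs, and a fit with the replicate number as a block is given as an alternative.

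The comparison, the gene lists and the rule for naming genes were chosen with earlier results of these data known. So were the weights by time and the variance trend, because replicates had varied more at 10 h and the spread depended on level. The rule takes up to 15 falls and 10 rises past the threshold with both late arrays on 1 side, else the 5 smallest p per direction, list members by p or level, dome, hop and Stat92E (hop has no single-gene probe set here), and 5 genes per direction for the difference between media. Genes of the fit on brighter probe sets, an alternative, the largest differences and other list members given as examples were named after their values were seen.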

Additional observations from a re-analysis of the deposited data

Results flagged for a closer look

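The change between 10 h and 2 h differed between Mock and UPD medium in limma's test of the difference for the 10 genes with the smallest p, 5 in each direction. Differences are the Mock change minus the UPD change on the log2 scale.

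The Mock change was above the UPD change for sol, Pi4KIIIalpha, beta-Spec, pico and AdamTS-B. sol, encoding a calpain, had a difference of 2.46 (limma adjusted p = 0.016), with 8.49 and 8.37 in Mock 10 h cells and 8.06 and 8.06 in Mock 2 h cells, and 6.49 and 5.46 in UPD 10 h cells and 8.11 and 8.03 in UPD 2 h cells. Pi4KIIIalpha, encoding a phosphatidylinositol 4-kinase, differed by 1.97, beta-Spec, encoding the membrane skeleton protein beta-spectrin, by 1.68, and pico by 1.79 (adjusted p = 0.016 each). AdamTS-B, encoding a secreted metalloprotease, differed by 2.24 (adjusted p = 0.019), with 7.62 and 7.58 at 10 h and 7.02 and 7.06 at 2 h after Mock, and 5.59 and 5.26 at 10 h and 7.12 and 7.08 at 2 h after UPD. In all 5 the UPD 10 h arrays were the low ones.

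The Mock change was below the UPD change for CG4793 (−3.63, adjusted p = 0.008), CG6357 (−3.17, 0.016), CG15715 (−1.40, 0.021), Ak6 (−1.45, 0.027) and CG13559 (−1.85, 0.027). CG6357 stood at 6.21 and 6.41 in Mock 10 h cells and 7.54 and 7.69 in Mock 2 h cells, and 9.97 and 9.43 in UPD 10 h cells and 7.71 and 7.96 in UPD 2 h cells. Ak6, encoding an adenylate kinase, stood at 9.36 and 9.31 at 10 h and 9.45 and 9.44 at 2 h after Mock, and 10.90 and 11.02 at 10 h and 9.54 and 9.68 at 2 h after UPD. Causes of these differences were not tested.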

How the results depend on the processing

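The count between Mock 10 h and Mock 2 h was 0 in limma on all probe sets and 0 with the values as deposited, without weights, trend and robust moderation, on the 4 Mock arrays alone, with treat at a minimum of 1.2-fold and with the replicate number as a block (1636 at an unadjusted p under 0.05). It was 14 after quantile normalization (2 higher, 12 lower), 30 without weights (5 and 25), 23 on brighter probe sets (3 and 20) and 6 after removal of the length trend (0 and 6). Leaving out 1 array gave 0 to 1943. The count of differences between media was 68, and 0 with the values as deposited, 141 after quantile normalization, 547 without weights, 1 without weights, trend and robust moderation, 630 on brighter probe sets, 11 with treat and 33 with the replicate block. Leaving out 1 array gave 0 to 1483, and the length-corrected count was 99. The count between 10 h and 2 h after UPD was 1648, and 3006 without weights, 708 with treat and 650 after removal of the length trend. The causes were not tested. The share of large differences depends on the centring: at least 2-fold lower and higher were 358 and 2 of 6834, 879 and 0 as deposited, and 193 and 10 after quantile normalization. Cyp6a20 had limma adjusted p from 0.000131 to 0.657 over 21 alternatives and passed in 6, pirk and CG4793 passed in 6, and Cyp6d5 and egh in 5. Of the other values recomputed, 4088 kept their direction and side of the threshold or moved within the replicate spread, 133 newly passed and 300 moved. Since no gene passed between Mock 10 h and Mock 2 h in the main fit, a gene that kept its side had again not passed. This tally is therefore no measure of how stable the calls are. The median replicate SD of 0.265 at 10 h limits which differences pass, and signal near the background limits dim probe sets.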

Other observations

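Among the 15 largest differences with both Mock 10 h arrays higher, chosen after their values were seen, Nplp2, which encodes a secreted peptide precursor, stood at 11.80 and 11.45 in Mock 10 h cells and 10.94 and 10.78 in Mock 2 h cells. CG34330 stood at 7.94 and 8.06 at 10 h and 6.99 and 6.88 at 2 h, and its change after UPD was 1.75. CG2930 stood at 6.76 and 6.67 at 10 h and 5.87 and 5.85 at 2 h, with a UPD change of −1.05. None of these passed limma on brighter probe sets, with adjusted p of 0.141, 0.067 and 0.236.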
